A study of Homo sapiens with 10 samples.

Results

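The ubiquitin conjugating enzymes, ubiquitin ligases and deubiquitinases described here were 122 gene names of the 5000 that carried an m6A peak in at least 1 of 7 deposited peak lists. They were chosen by name alone: every listed gene beginning with UBE2, UBE3, USP, RNF, TRIM, FBXO, FBXW, FBXL, CUL, OTUD or KLHL, followed where the family numbers its genes by a digit or letter. Of the 122 names, 116 were genes of these families, 4 were antisense RNAs (FBXL19-AS1, OTUD6B-AS1, RNF219-AS1 and USP3-AS1), 1 was the readthrough gene TRIM39-RPP21, and 1, USP6NL, encodes a GTPase-activating protein that shares only the first letters of its name. All libraries came from the castration-resistant prostate cancer line V16A, in which m6A was mapped by MeRIP-seq: fragments of RNA carrying N6-methyladenosine are pulled down with an antibody and sequenced. The lists came from 1 library labelled EU 40min, taken here to mean transcripts made while cells took up ethynyl uridine for 40 min, from 2 libraries of cells in hypoxia and from 2 libraries of cells in normoxia. Hypoxia and normoxia each had a further list for the whole condition, called here the condition list. The labels name no genotype, drug or oxygen level and give no oxygen condition for the EU library, and the making of the condition lists is not stated. Matched inputs were made for all 5 libraries and are not analysed here.

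Ubiquitin is activated by an E1 enzyme, passed to an E2 conjugating enzyme (the UBE2 genes) and placed on a substrate by an E3 ligase. RING-type ligases, to which the RNF and TRIM families belong, bring a charged E2 next to the substrate. Cullins are scaffolds for larger ligases: CUL1 carries F-box proteins (FBXO, FBXW, FBXL) as substrate receptors by way of SKP1, and CUL3 carries BTB proteins such as the KLHL family. USP and OTUD enzymes take ubiquitin off again. In hypoxia biology the system is best known for the VHL complex on CUL2, which marks HIF alpha subunits for destruction when oxygen is present.

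The lists differed in length, and they held only peaks past a threshold that no source states. Peaks numbered 5044 in the EU list, 2879 and 6621 in hypoxia replicates 1 and 2, and 212 and 1563 in normoxia replicates 1 and 2. Reads were not used here, so depth is unknown, and the lack of a call shows neither the lack of m6A nor the lack of the transcript. In bulk RNA, fewer cells of a type and less RNA per cell cannot be told apart. Nothing in the labels says that replicates were separate cultures, so the p-values below reflect only how these libraries varied, possibly for technical reasons. As a check of the labelled cell type, 10 prostate and epithelial markers were looked up: 8 had a peak in the EU list, 2 and 4 in the hypoxia replicates and 1 and 5 in the normoxia replicates, with 16 summed peaks in EU, 5 and 9 in hypoxia and 2 and 14 in normoxia. FOXA1 had a peak in all 5 libraries, and the keratins KRT8 and KRT18 had none in any list. Of 14 T and NK cell markers, 12 had a peak in the EU list, 8 and 11 in the hypoxia replicates and 4 and 0 in the normoxia replicates, with 26 summed peaks in EU, 15 and 29 in hypoxia and 6 and 0 in normoxia. All 14 had a peak in some list. They are genes of lymphocytes and not of prostate epithelium, whose keratins KRT8 and KRT18 lacked a call, so the peaks went against the labelled cell type in part. Peaks in T and NK markers differed between the libraries, and not by condition alone. Normoxia replicate 1 had 6 among its 212 peaks and normoxia replicate 2 had 0 among 1563. The hypoxia replicates had 15 among 2879 and 29 among 6621. The part of these markers in the results below was not tested.

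For 9 genes a peak reached the window around an annotated transcription start, and 4 of these windows are printed because they show calls of different lists around 1 start or calls in genes described below. Each runs 5′ to 3′ on the gene's strand, 250 bases before to 50 after a RefSeq start (GRCh38.p14), and capitals mark the bases under a called peak. The windows are chr10:35090292-35090591 for CUL2, chr4:152535192-152535491 for FBXW7, chr19:9819030-9819329 for FBXL12 and chrX:48957558-48957857 for OTUD5, all on the minus strand.
CUL2: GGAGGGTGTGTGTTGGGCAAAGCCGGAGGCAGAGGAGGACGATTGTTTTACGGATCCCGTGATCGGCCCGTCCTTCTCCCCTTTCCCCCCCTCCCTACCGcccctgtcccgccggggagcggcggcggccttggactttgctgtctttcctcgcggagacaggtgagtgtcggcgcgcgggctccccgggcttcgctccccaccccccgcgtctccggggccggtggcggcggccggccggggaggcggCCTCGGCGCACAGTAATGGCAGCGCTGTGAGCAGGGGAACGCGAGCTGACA
FBXW7: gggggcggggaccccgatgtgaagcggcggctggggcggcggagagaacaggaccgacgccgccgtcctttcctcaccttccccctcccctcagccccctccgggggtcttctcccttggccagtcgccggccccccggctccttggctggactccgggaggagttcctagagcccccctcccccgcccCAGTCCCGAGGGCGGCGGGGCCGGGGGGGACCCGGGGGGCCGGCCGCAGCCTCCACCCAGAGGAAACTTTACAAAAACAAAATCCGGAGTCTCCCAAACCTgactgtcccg
FBXL12: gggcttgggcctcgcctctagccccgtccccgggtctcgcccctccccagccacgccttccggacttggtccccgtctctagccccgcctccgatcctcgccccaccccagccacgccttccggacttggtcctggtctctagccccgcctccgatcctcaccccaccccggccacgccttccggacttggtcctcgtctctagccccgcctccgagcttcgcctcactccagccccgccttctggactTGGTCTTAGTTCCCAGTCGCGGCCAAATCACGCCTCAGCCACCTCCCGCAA
OTUD5: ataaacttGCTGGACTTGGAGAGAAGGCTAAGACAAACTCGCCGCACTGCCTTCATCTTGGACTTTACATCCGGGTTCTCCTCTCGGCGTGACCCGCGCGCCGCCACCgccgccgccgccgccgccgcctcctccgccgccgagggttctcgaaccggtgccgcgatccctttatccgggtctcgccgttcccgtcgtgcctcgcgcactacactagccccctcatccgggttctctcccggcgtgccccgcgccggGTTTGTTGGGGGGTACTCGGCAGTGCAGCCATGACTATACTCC
In CUL2, the call of hypoxia replicate 2 took in bases 1 to 100 and that of the normoxia condition list bases 250 to 300. In FBXW7 the covered bases, 190 to 290, came from hypoxia replicate 2. In FBXL12 the EU list covered bases 250 to 300. In OTUD5, the call of hypoxia replicate 1 took in bases 258 to 300, and that of normoxia replicate 2 took in bases 9 to 108. The letters GGACT, 1 form of the sequence in which m6A is commonly placed, occurred 1 time in the CUL2 window, 1 time in FBXW7, 4 times in FBXL12 and 2 times in OTUD5, counted on the gene's strand. Only the 2 in OTUD5 lay under a peak, both in the stretch called in normoxia replicate 2. GGACT stood on the gene's strand in 22.6% of the 159 windows of these families and in 25.3% of all 35116 windows of the same length. On either strand the shares were 47.2% and 44.2%.

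The first comparison asked which families carried called peaks. Of 391 protein-coding genes of these families in RefSeq, 115 (29.4%) had a peak in some list, and of all 20056 protein-coding genes 4401 (21.9%) did. The share was 62.5% of 8 OTUD genes, 50% of 8 cullins, 41.7% of 36 UBE2 genes and 35.7% of 84 RNF genes. It was lower for FBX genes (31.7% of 63), KLHL genes (24.3% of 37), USP genes (22.4% of 76) and TRIM genes (20% of 75). The USP figure counts 25 copies of USP17L, a near-identical multigene family. No UBE3 gene had a peak, which includes UBE3A, the ligase lost in Angelman syndrome, nor did CUL3, the scaffold of the KLHL ligases, RNF7, a RING partner of cullins, or TRIM28, the corepressor also called KAP1.

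By library, and leaving out the antisense, readthrough and USP6NL names, the families stood as follows. RNF genes with a peak numbered 17 in EU, 8 and 16 in hypoxia and 1 and 8 in normoxia. F-box genes numbered 13 in EU, 6 and 8 in hypoxia and 0 and 8 in normoxia, and USP genes 12 in EU, 3 and 5 in hypoxia and 1 and 4 in normoxia. KLHL genes numbered 7 in EU, 0 and 1 in hypoxia and 0 and 2 in normoxia. For F-box genes normoxia replicate 2 had as many genes as the longer hypoxia list, whereas cullins had 1 and 3 genes in hypoxia and none in normoxia.

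**Figure D1:**
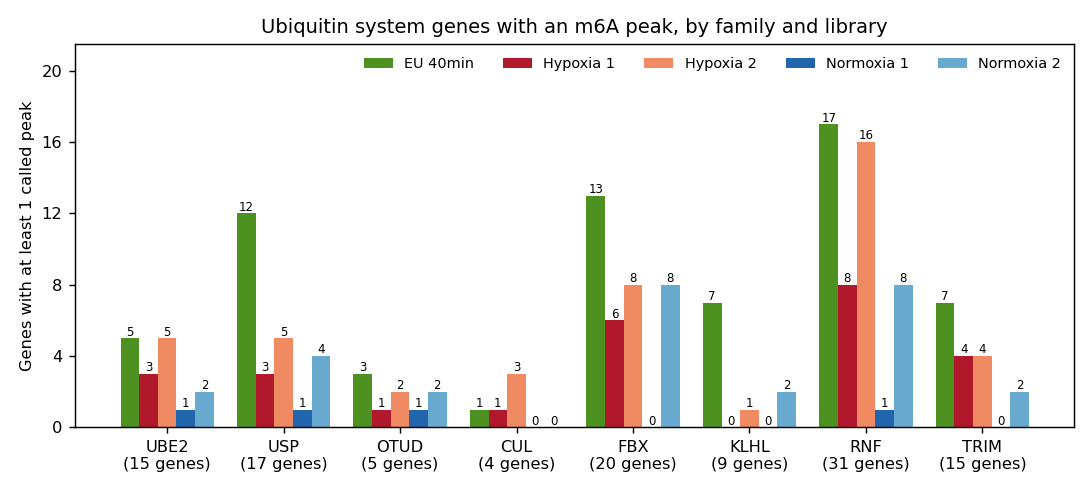
Bars give the number of genes with at least 1 called peak (vertical axis) in each family (horizontal axis, with the number of family genes in any list) for the EU 40min, hypoxia 1 and 2 and normoxia 1 and 2 libraries. EU had the highest bar for USP (12), FBX (13), KLHL (7), RNF (17), TRIM (7) and OTUD (3), cullins were highest in hypoxia 2 (3), and normoxia 1 had no bar above 1.

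The next comparison set presence under hypoxia beside presence under normoxia. The hypoxia replicates had 61 and 145 peaks in 26 and 45 of the genes, and the normoxia replicates had 4 and 49 peaks in 4 and 29 of them. Every hypoxia count of peaks was above both normoxia counts, while for genes hypoxia replicate 1 lay below normoxia replicate 2. On the log2(peaks + 1) scale the mean was 6.57 ± 0.87 in hypoxia and 3.98 ± 2.35 in normoxia (SD, n = 2 each), a difference of 2.59 with an exact two-sided permutation p of 0.333. That p is the smallest that 2 libraries against 2 can give, so no difference between the conditions could pass 0.05. On the log2(genes + 1) scale the mean was 5.14 ± 0.54 in hypoxia and 3.61 ± 1.83 in normoxia, a difference of 1.52 with an exact permutation p of 0.667. With every library's list shortened to the 212 peaks of smallest p, the length of the shortest, both signs turned, to -0.480 for peaks and -0.661 for genes. These short lists held only 9 of the genes over the 4 libraries, and the exact permutation p was 0.667 for both differences. Leaving out 1 library at a time, the difference in peaks ran from 0.93 to 4.25 and that in genes from 0.23 to 2.82.

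Set against the length of the lists, the order turned round. The families made up 2.07% and 2.09% of the genes with a peak in the hypoxia replicates (exact 95% binomial intervals 1.35 to 3.01 and 1.53 to 2.79), and 2.88% and 3.23% in the normoxia replicates (0.790 to 7.20 and 2.18 to 4.61). Both hypoxia shares were lower than both normoxia shares, although the intervals, which cover counting error only, overlapped. The means were 2.08% ± 0.0179 in hypoxia and 3.06% ± 0.251 in normoxia (SD, n = 2 each), a difference of -0.976 percentage points with an exact permutation p of 0.333. Keeping only the 50% of peaks with the lowest deposited p in each list, the difference was 0.748 points, with no peak of these genes left in normoxia replicate 1, and with lists shortened to 212 peaks it was -0.871 points. Peaks per gene were near those of all genes: hypoxia replicates had 2.35 and 3.22 per gene against 2.29 and 3.08 for all genes, and normoxia replicates 1 and 1.69 against 1.53 and 1.74. The mean log2 number of peaks per gene was 1.46 ± 0.32 in hypoxia and 0.38 ± 0.54 in normoxia, with an exact permutation p of 0.333.

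**Figure D2:**
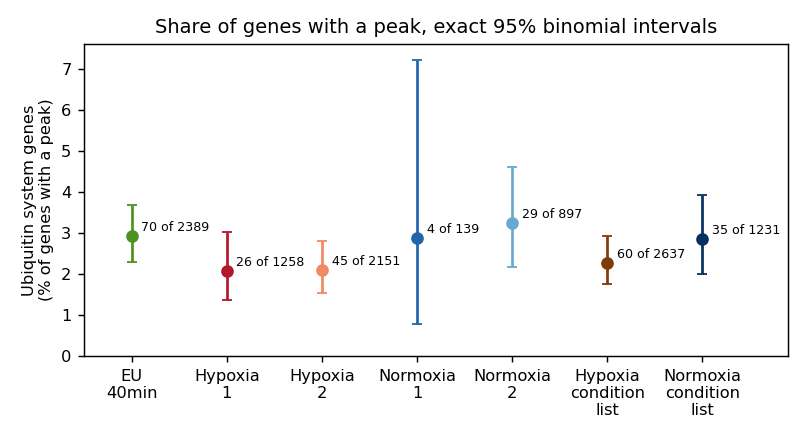
Points give the ubiquitin system genes as a percent of all genes with a peak (vertical axis) in each of 7 lists (horizontal axis), with exact 95% binomial intervals as bars and the counts beside them. The hypoxia libraries lie at 2.07% and 2.09%, the normoxia libraries at 2.88% and 3.23% and EU at 2.93%, with intervals that overlap.

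Of the 122 names, 77 had a peak in at least 1 of the 4 hypoxia and normoxia libraries. A peak in both hypoxia and in neither normoxia replicate (hypoxia-only) was found for 12 of the 77 (15.6%, exact 95% interval 8.32 to 25.6), beside 15.3% of all 3226 genes with a peak in any of the 4. None of the 77 had the reverse, normoxia-only pattern (an exact upper limit of 4.68%), beside 0.155% of all genes. Both shares were close to their backgrounds and so were no result about these families. Leaving out a library loosens these rules, so that the counts can only rise or stay. Hypoxia-only genes then numbered 38 without hypoxia replicate 1 and 19 without hypoxia replicate 2. Normoxia-only genes numbered 19 without normoxia replicate 1 and 3 without normoxia replicate 2. Shares of all genes under the looser rules were not computed, so these counts are no result about the families. The list left for hypoxia held 2151 genes without replicate 1 and 1258 without replicate 2. For normoxia it held 897 genes without replicate 1 and 139 without replicate 2. Of the 12 genes that were hypoxia-only over all 4 libraries, 7 also had an EU peak (58.3%, 27.7 to 84.8), beside 43.5% of all genes with that pattern. A peak in some hypoxia and no normoxia library was found for 45 of the 77 (58.4%, 46.6 to 69.6), beside 69.2% of all genes, and a peak in some normoxia and no hypoxia library for 22 (28.6%, 18.8 to 40.0), beside 15.5% of all genes. All but 3 of those 22 genes came from normoxia replicate 2, and the 3 came from the short list of normoxia replicate 1: OTUD4, RNF208 and UBE2H. Genes called in both conditions numbered 10 (13.0%), beside 15.4% of all genes.

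**Figure D3:**
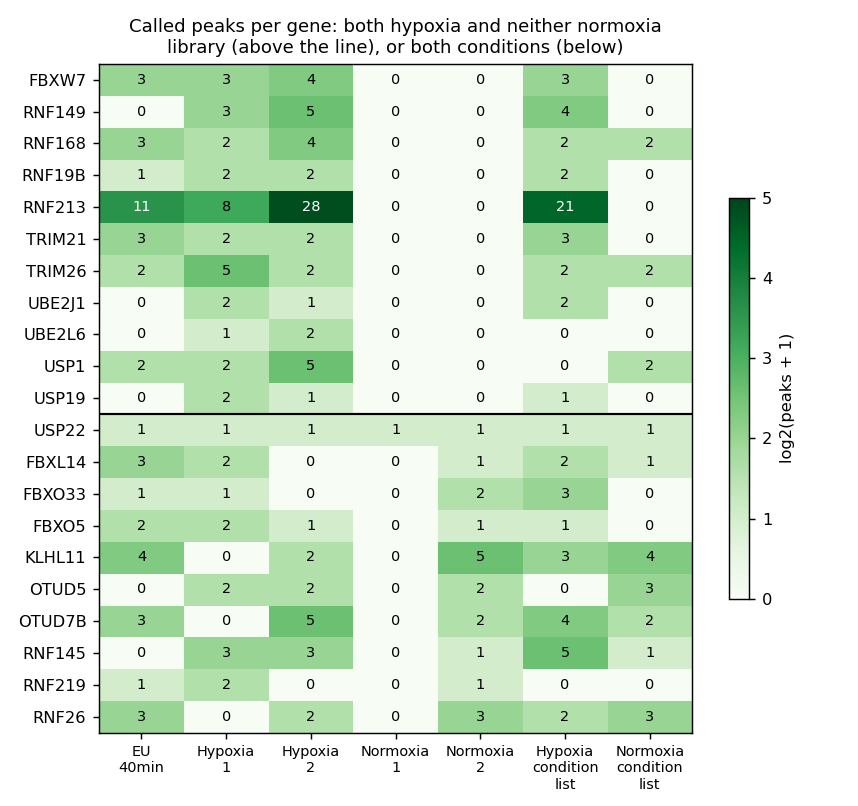
Each cell gives the number of called peaks of a gene (rows) in a list (columns), shaded by log2(peaks + 1). Above the line are 11 of the 12 genes with a peak in both hypoxia libraries and in neither normoxia library, and below it the 10 genes with a peak in both conditions, of which USP22 had exactly 1 peak in all 7 lists.

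Among E2 enzymes, 15 genes were listed: 5 in EU, 3 and 5 in the hypoxia replicates and 1 and 2 in the normoxia replicates. UBE2J1, an E2 anchored in the endoplasmic reticulum membrane that serves protein quality control there, had 0 peaks in EU, 2 and 1 in the hypoxia replicates and 0 and 0 in the normoxia replicates. The peak common to the hypoxia replicates spanned 89342440 to 89352549 on chromosome 6 (hg38) across spliced blocks, with a deposited p of 1.4e-05 in replicate 1 and 0.0079 in replicate 2. UBE2L6, the interferon-induced E2 for the ubiquitin-like protein ISG15, had 0 peaks in EU, 1 and 2 in hypoxia and 0 and 0 in normoxia. Its shared site lay 269 to 393 bases from the 3′ end of the gene, on chromosome 11 at 57552005 to 57552105 in replicate 1 and 57551756 to 57552105 in replicate 2. Neither condition list held a UBE2L6 peak. For both enzymes the hypoxia libraries had a call where the normoxia libraries had none, and a single gene cannot pass a test of 2 libraries against 2.

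Other E2 genes had calls in fewer libraries. UBE2D3, an E2 used by many RING ligases, had 4 peaks, all from hypoxia replicate 1. RefSeq holds 5 pseudogenes under its name, and the sources do not say how reads were split among near-identical copies, so the UBE2D3 call is uncertain. The same holds for UBE2V1 (15 pseudogenes), UBE2Q2 (11) and UBE2C (5). UBE2O, a large enzyme that joins E2 and E3 activity, had the most peaks of its family over the 5 libraries: 5 in EU, 0 and 0 in hypoxia and 0 and 2 in normoxia. Of its sites, those at 76389999 to 76390098 and 76391343 to 76391442 on chromosome 17 in normoxia replicate 2 lay 593 and 1937 bases from the 3′ end of the gene, and both were overlapped by EU peaks, the first by a single shared base. UBE2H, the E2 of the CTLH ligase, was 1 of the 4 genes called in normoxia replicate 1 and was in no other list. E2 peaks lay near the 3′ end, with a median position of 0.907 in EU, 0.921 in hypoxia and 0.980 in normoxia on a scale from 0 at the 5′ to 1 at the 3′ end of the gene span, introns included.

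All 4 listed cullins had peaks in hypoxia libraries and none in normoxia libraries, with 12 peaks against 0. Of all genes with a peak in any of these libraries, 69.2% had a hypoxia and no normoxia call. Hypoxia replicate 2, the longest list, gave 11 of the 12 cullin peaks. CUL1, the SCF scaffold, had 1 peak in EU, 0 and 6 in the hypoxia replicates and 0 and 0 in the normoxia replicates. The EU site, 148800586 to 148800786 on chromosome 7 and 424 bases from the 3′ end, was shared with hypoxia replicate 2. CUL2, the scaffold of the VHL ligase, had 0 peaks in EU, 0 and 3 in hypoxia and 0 and 0 in normoxia. CUL4A (1 peak in hypoxia replicate 1) and CUL4B (2 in hypoxia replicate 2), scaffolds that work with DDB1, had 1 hypoxia library each. No cullin was called in both hypoxia replicates, and for CUL1 and CUL2 the condition lists ran against the libraries: CUL1 had 0 peaks in the hypoxia and 1 in the normoxia condition list, and CUL2 had 0 in the hypoxia and 3 in the normoxia condition list. In the CUL2 window printed above, the call of hypoxia replicate 2 and that of the normoxia condition list took in different bases. Outside the window, a further call of hypoxia replicate 2 (35089999 to 35090242 on chromosome 10) overlapped that same condition list peak (35090192 to 35090342).

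F-box genes were the second largest family, with 21 names, of which FBXL19-AS1 is an antisense RNA. FBXW7, the receptor that brings cyclin E, MYC and NOTCH to the SCF ligase and a tumour suppressor, had 3 peaks in EU, 3 and 4 in the hypoxia replicates and 0 and 0 in the normoxia replicates. Its site at 152411497 to 152411597 on chromosome 4 in hypoxia replicate 1 was contained in the call of hypoxia replicate 2 (152411497 to 152412498, deposited p 8.1e-07) and in that of EU (152411497 to 152411847, deposited p 2.7e-08). A further site near the 3′ end, about 0.989 of the way along the gene, was also called in EU and both hypoxia replicates, and the peak at the start printed above was in hypoxia replicate 2 only.

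Of the F-box genes called in both conditions, FBXL14, a receptor for the transcription factor SNAI1, had 3 peaks in EU, 2 and 0 in hypoxia and 0 and 1 in normoxia. The call at 1592972 to 1593171 on chromosome 12 in normoxia replicate 2 overlapped a peak of hypoxia replicate 1 and of EU, all 1720 to 1820 bases from the 5′ end. FBXO5, also called EMI1, an inhibitor of the anaphase-promoting complex, had 2 peaks in EU, 2 and 1 in hypoxia and 0 and 1 in normoxia. FBXO33 had 1 peak in EU, 1 and 0 in hypoxia and 0 and 2 in normoxia, at sites that did not overlap between the hypoxia and normoxia libraries. A peak of the hypoxia condition list (39401576 to 39401823 on chromosome 14) did overlap normoxia replicate 2 (39401526 to 39401773) and EU. FBXO30, FBXO45 and FBXO46 had peaks in normoxia replicate 2 (3, 2 and 1) and none in either hypoxia replicate, yet all 3 were in the hypoxia condition list. Over the 21 names, median positions were 0.786 in EU, 0.642 in hypoxia and 0.476 in normoxia, the last from 12 peaks.

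KLHL genes, adaptors of CUL3 ligases, were the family with the largest share of names in the EU list. Of 9 names, 77.8% were in EU, 11.1% in a hypoxia library and 22.2% in a normoxia library. KLHL11 had 4 peaks in EU, 0 and 2 in the hypoxia replicates and 0 and 5 in the normoxia replicates. The call of hypoxia replicate 2 on chromosome 17 (41853992 to 41854091) overlapped that of normoxia replicate 2 (41853942 to 41854041), and both lay within an EU peak (41853793 to 41854140). KLHL9, an adaptor that acts on Aurora B in mitosis, had 4 peaks in EU, 0 and 0 in hypoxia and 0 and 2 in normoxia, with both normoxia sites inside EU peaks. Among the libraries, KLHL11 and KLHL9 were thus the KLHL genes with calls in normoxia, and KLHL11 was the 1 with a call in hypoxia. The condition lists added KLHL6 (3 peaks), KLHL9 (1) and KLHL21 (1) for hypoxia and KLHL35 (2) for normoxia. The KLHL9 peak of the hypoxia condition list (21333444 to 21333891 on chromosome 9) overlapped a site of normoxia replicate 2. In EU, 25% of the 20 KLHL peaks lay in the 3′-most 20% of the gene span, beside 49.0% of the peaks of all genes. Median positions were 0.638 in EU, 0.639 in hypoxia and 0.625 in normoxia. The hypoxia value came from 2 peaks of KLHL11 alone, and the normoxia value from 7 peaks of 2 genes, 5 of them in KLHL11.

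RNF genes were the largest family and had the most hypoxia peaks of any family, 89 over both hypoxia libraries and 13 over both normoxia libraries. Over all genes the hypoxia lists were also longer, with 2879 and 6621 peaks against 212 and 1563 in normoxia. RNF213, a very large ATPase and ligase linked to moyamoya disease, had 11 peaks in EU, 8 and 28 in the hypoxia replicates and 0 and 0 in the normoxia replicates. It alone gave 36 of the 206 hypoxia peaks of all the families (17.5%) and 0 of the 53 normoxia peaks. Its hypoxia peaks ran along the gene, at positions 0.520 to 0.966 in replicate 1 and 0.0899 to 0.968 in replicate 2. Without RNF213, the difference in log2(peaks + 1) between hypoxia and normoxia was 2.34 in place of 2.59.

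RNF168, which marks histone H2A at DNA breaks, had 3 peaks in EU, 2 and 4 in hypoxia and 0 and 0 in normoxia. Its EU peak at 196471981 to 196472680 on chromosome 3 had a deposited p of 2.5e-11, the smallest in these families and that of all 3 RNF168 peaks in EU, and hypoxia replicate 1 (196472031 to 196472280) and replicate 2 (196472280 to 196472380) both fell inside it. A second pair of calls lay at the gene start, at 196503218 to 196503318 in hypoxia replicate 1 and 196503268 to 196503518 in replicate 2, and the normoxia condition list held calls at both this site and the first (196472180 to 196472380, deposited p 3.3e-06). RNF149, a membrane-anchored ligase, had 0 peaks in EU, 3 and 5 in hypoxia and 0 and 0 in normoxia, and both hypoxia replicates had a call near its 5′ end that began at base 101308203 on chromosome 2. RNF19B, an RBR ligase known from natural killer cells as NKLAM, had 1 peak in EU, 2 and 2 in hypoxia and 0 and 0 in normoxia. RNF213, RNF168, RNF149 and RNF19B were the RNF genes with calls in both hypoxia replicates and in neither normoxia replicate.

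RNF145, a sterol-regulated ligase of the endoplasmic reticulum, was called in both conditions, with 0 peaks in EU, 3 and 3 in hypoxia and 0 and 1 in normoxia. Its shared site on chromosome 5 began at base 159158203 in 3 libraries and ended at 159158500 in hypoxia replicate 1, 159158550 in hypoxia replicate 2 and 159158451 in normoxia replicate 2, with midpoints 918 to 968 bases from the 3′ end. RNF26, a ligase that positions endosomes from the endoplasmic reticulum, had 3 peaks in EU, 0 and 2 in hypoxia and 0 and 3 in normoxia. RNF219, whose current symbol is OBI1 and which acts at replication origins, had 1 peak in EU, 2 and 0 in hypoxia and 0 and 1 in normoxia, and no site of it was shared between any pair of these. RNF6, a ligase known to modify the androgen receptor, had 3 peaks in EU, 0 and 0 in hypoxia and 0 and 3 in normoxia. RNF26 and RNF6 thus had more calls in normoxia replicate 2 than in either hypoxia library, whose lists were longer.

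TRIM genes with a peak numbered 7 in EU, 4 and 4 in hypoxia and 0 and 2 in normoxia. TRIM21, the cytosolic antibody receptor, had 3 peaks in EU, 2 and 2 in the hypoxia replicates and 0 and 0 in the normoxia replicates. It was the 1 gene of 16 with peaks in both hypoxia replicates whose calls shared no base between them, although each replicate had a call that overlapped an EU peak. TRIM26, a ligase encoded in the major histocompatibility region, had 2 peaks in EU, 5 and 2 in hypoxia and 0 and 0 in normoxia, and 2 in the normoxia condition list. The TRIM genes called in a normoxia library were TRIM41 and TRIM52. Their peaks were only in normoxia replicate 2 and the normoxia condition list, 573 to 972 bases from the 5′ end. TRIM14 and TRIM45 each had 1 peak in the normoxia condition list and none in any library. With the readthrough name TRIM39-RPP21 counted in EU, the median position was 0.777 in EU, 0.926 in hypoxia and 0.0516 in normoxia, the last from 3 peaks of 2 genes, of which the 2 in TRIM52 overlapped each other.

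Among deubiquitinases, 12 of 17 USP genes were called in EU, 3 and 5 in the hypoxia replicates and 1 and 4 in the normoxia replicates. USP22, the H2B deubiquitinase of the SAGA complex, was the 1 gene of all 77 with a peak in every hypoxia and normoxia library (1.30%), beside 0.62% of all genes. It had 1 peak in EU, 1 and 1 in hypoxia and 1 and 1 in normoxia, all at 1 site near the 3′ end on chromosome 17. The site was 21002524 to 21002972 in EU, 21002574 to 21002872 and 21002574 to 21003021 in the hypoxia replicates, and 21002524 to 21002872 and 21002574 to 21002922 in the normoxia replicates. Deposited p-values for it were 2.3e-05 in EU, 0.00039 and 0.00062 in hypoxia and 4.1e-05 and 0.00042 in normoxia, and midpoints lay 3102 to 3202 bases from the 3′ end in these 5 libraries.

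USP1, which acts on FANCD2 and PCNA in DNA repair, had 2 peaks in EU, 2 and 5 in hypoxia and 0 and 0 in normoxia. Both EU sites, 62444834 to 62445081 and 62445230 to 62445379 on chromosome 1, were called in both hypoxia replicates. The condition lists ran the other way for USP1, with 0 peaks for hypoxia and 2 for normoxia. USP19, anchored in the endoplasmic reticulum, had 0 peaks in EU, 2 and 1 in hypoxia and 0 and 0 in normoxia. USP7, which acts on MDM2 and p53, had 0 peaks in EU, 0 and 7 in hypoxia and 0 and 0 in normoxia, so that its calls rested on hypoxia replicate 2. USP31 had 1 peak in EU, 0 and 0 in hypoxia and 0 and 4 in normoxia.

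OTUD genes had calls in all 5 libraries, 3 genes in EU, 1 and 2 in hypoxia and 1 and 2 in normoxia. OTUD7B, also called Cezanne, which trims ubiquitin chains, had 3 peaks in EU, 0 and 5 in hypoxia and 0 and 2 in normoxia. Its calls clustered between 149943800 and 149950125 on chromosome 1, in the last part of the gene, and both conditions and EU overlapped there. OTUD5, also called DUBA, which acts on TRAF3, had 0 peaks in EU, 2 and 2 in hypoxia and 0 and 2 in normoxia. The hypoxia replicates shared a site at position 0.654 to 0.655 of the gene, where normoxia replicate 2 had no call. It was 48934521 to 48934671 on chromosome X in replicate 1 and 48934521 to 48934621 in replicate 2. That site was in neither condition list, and OTUD5 had 0 peaks in the hypoxia and 3 in the normoxia condition list. Normoxia replicate 2 had both its peaks within or next to the window printed above, and hypoxia replicate 1 overlapped 1 of them (48957500 to 48957600 in hypoxia and 48957451 to 48957550 in normoxia).

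**Figure D4:**
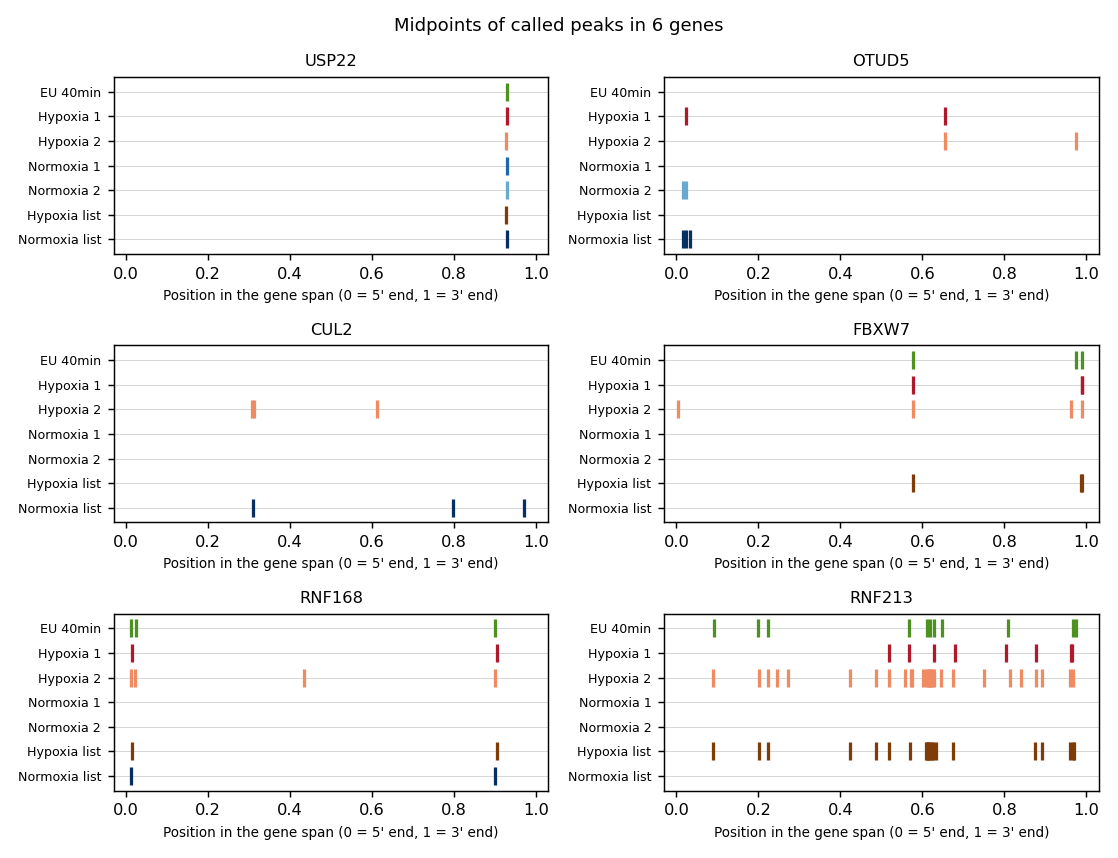
Ticks mark the midpoints of called peaks along the gene span (horizontal axis, 0 at the 5′ and 1 at the 3′ end) in each of 7 lists (rows) for USP22, OTUD5, CUL2, FBXW7, RNF168 and RNF213. USP22 had 1 site in every list, FBXW7 and RNF168 each had sites called in EU and both hypoxia libraries beside sites of fewer lists, and CUL2 had calls in hypoxia 2 and in the normoxia condition list.

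The position of the peaks was then compared over all the families. The median position of peak midpoints was 0.849 and 0.773 in the hypoxia replicates and 0.920 and 0.672 in the normoxia replicates, where all genes had 0.716 and 0.740 in hypoxia and 0.601 and 0.765 in normoxia. Hypoxia values lay between the normoxia values, of which the 0.920 came from 4 peaks. The means were 0.811 ± 0.0541 in hypoxia and 0.796 ± 0.176 in normoxia (SD, n = 2 each), with a difference of 0.0150 and an exact permutation p of 1, and the sign turned without hypoxia replicate 1 (-0.0232) and without normoxia replicate 2 (-0.109). Positions from 0.8 on, the 3′-most 20% of the gene span, held 55.7% and 49.0% of the peaks in hypoxia and 75% and 38.8% in normoxia. The 5′-most 20% held 14.8% and 8.28% in hypoxia and 0% and 26.5% in normoxia. In the EU list the median was 0.810, with 50.3% of peaks in the 3′-most 20%, near the 0.793 and 49.0% of all genes.

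**Figure D5:**
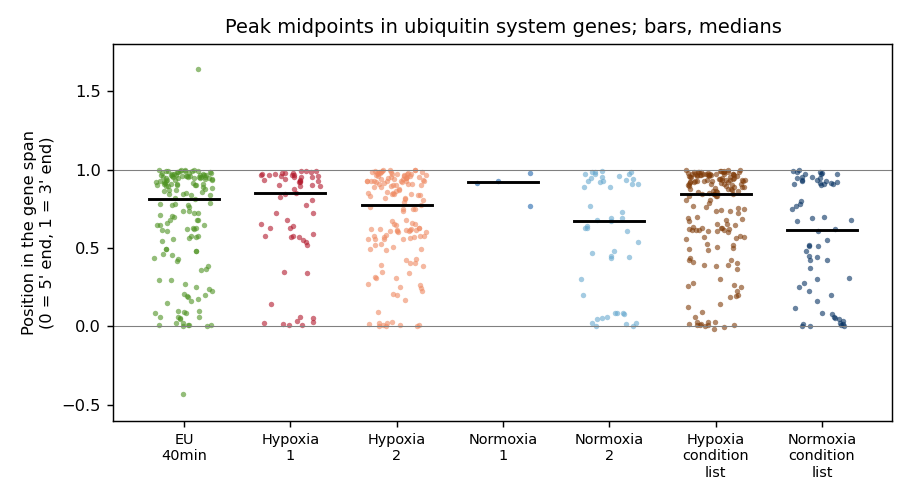
Each point is the midpoint of 1 called peak in a ubiquitin system gene, placed on its gene span (vertical axis, 0 at the 5′ and 1 at the 3′ end) in each of 7 lists (horizontal axis), with the median as a bar. Medians were 0.810 in EU, 0.849 and 0.773 in hypoxia and 0.920 and 0.672 in normoxia, and the few points outside 0 to 1 belong to peaks whose midpoint lay outside the RefSeq span.

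Genes called in more than 1 library were mostly called at the same site. Of the 10 genes with peaks in libraries of both conditions, 8 (80%) had overlapping sites, beside 86.3% of all 496 such genes. The exceptions were FBXO33 and RNF219, and for FBXO33 the hypoxia condition list did overlap a normoxia site. Of 16 genes called in both hypoxia replicates, 15 (93.8%) shared a site, beside 90.8% of all such genes. Peak by peak the sharing was lower: 45.9% of the 61 peaks in hypoxia replicate 1 were overlapped by a peak of replicate 2 (exact interval 33.1 to 59.2), beside 47.4% for all genes. Normoxia peaks of replicate 2 were overlapped by EU peaks in 59.2% of 49 cases, beside 54.1% for all genes.

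The EU list held the largest number of these genes, 70 with 153 peaks, which is 2.93% of its genes (exact interval 2.29 to 3.69). Over all 122 names, 57.4% had a peak in EU, 45.1% in a hypoxia library and 26.2% in a normoxia library, beside 47.8%, 54.5% and 19.9% of all 5000 names. A single list held 49 of the 122 (40.2%), beside 42.4% of all names, and for 25 of them (20.5%) that list was EU, beside 17.7%. Of the 77 genes of the hypoxia and normoxia libraries, 38 (49.4%, 37.8 to 61.0) also had an EU peak, beside 39.9% of all 3226 genes. EU peaks were found in 27 of 55 genes (49.1%) called in hypoxia and 19 of 32 (59.4%) called in normoxia, beside 38% and 62.3% for all genes. A further 32 of the 70 EU genes (45.7%) had no peak in any of the 4 libraries, beside 46.1% of all EU genes. Those of smallest p were FBXL12 (3 peaks), FBXL19-AS1 (2), RNF166 (1), UBE2Z (1) and FBXO11 (4), the receptor for BCL6. The EU condition had 1 library and thus no replicate check.

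The condition lists held 60 of the genes with 166 peaks for hypoxia and 35 genes with 64 peaks for normoxia. Of the 80 genes in either, 45 were in the hypoxia list only, beside 62.8% of all genes, 20 in the normoxia list only, beside 20.3%, and 15 in both, beside 16.9%. They did not simply repeat the libraries: 20 of the 60 hypoxia genes (33.3%) had no peak in either hypoxia replicate, beside 26.5% of all genes, and 14 of the 35 normoxia genes (40%) none in either normoxia replicate, beside 42.9%. USP20 had 8 peaks, UBE2G2, an E2 of endoplasmic reticulum quality control, 7 and USP4 5 in the hypoxia condition list while neither hypoxia replicate called them. Of the genes found in condition lists only, those of smallest p besides USP20 were RNF113A (2 peaks in the normoxia list) and, in the hypoxia list, FBXL19 (2), UBE2Q2 (2) and RNF31 (1), the catalytic subunit of the linear ubiquitin ligase. CUL1, CUL2 and USP1 were called in a hypoxia and no normoxia library, yet listed for the normoxia condition only. UBE2L3 and USP24 had the reverse.

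Other genes of the pathway were looked up as a list of 57: E1 enzymes, ubiquitin genes, cullin partners and further ligases and deubiquitinases. A peak in any list was found for 27 of them, 10 in EU, 11 and 9 in the hypoxia replicates and 0 and 7 in the normoxia replicates. Of the 20 with a peak in any of the 4 hypoxia and normoxia libraries, 2 were called in both hypoxia replicates and neither normoxia replicate. This pattern was found for 15.3% of all genes. The 2 were PELI1, a ligase of innate immune signalling, and TCEB2, the elongin B subunit of the VHL complex. None had the reverse pattern, beside 0.155% of all genes. PELI1 had 3 peaks in EU, 1 and 3 in hypoxia and 0 and 0 in normoxia. SIAH2, a ligase that acts on the HIF prolyl hydroxylases, had 1 peak in EU, 2 and 2 in hypoxia and 0 and 1 in normoxia. UBA6, an E1, had 5 peaks and HERC1, a giant HECT ligase, 9 in hypoxia replicate 2 alone of the 5 libraries, while MDM2, the p53 ligase, had 2 peaks in EU and 2 in normoxia replicate 2. VHL, the F-box receptor SKP2, the SCF parts SKP1 and RBX1 and the E1 UBA1 had no peak in any list.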

How the data were processed

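MeRIP-seq peak lists of 5 libraries and 2 conditions were analysed, each with 12 BED columns and no header. Per the submitters' processing notes, STAR and hg38 were used; versions, peak caller, threshold, use of inputs and annotation are not stated in them or in the labels. Column 5, which the files do not name, was taken as the authors' deposited p-value of a peak and served only to describe, rank or filter peaks within a list.

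Gene names of column 4 were matched to RefSeq (GRCh38.p14) by symbol or synonym: all 122 members and 4591 of 5000 names matched. Starts were counted from 1, and peaks overlapped when they shared at least 1 base of a block on the same strand. Libraries were compared with exact two-sided permutation tests (python 3.11.15, numpy 2.4.6, pandas 2.3.3, scipy 1.17.1). These tests were checked on a small fixed example, and the overlap rule and the binomial intervals on simulated data. Intervals are exact binomial at 95% and cover counting error only; depth is unknown. The rule for named genes took genes with a peak in all 4 libraries, up to 3 hypoxia-only genes per family by smallest p, the gene with most peaks per family, up to 5 genes of EU or condition lists alone, and 10 genes by topic; genes called in both conditions, and others named beside them, were chosen after their values were seen. The members and lists were chosen with earlier results of these data known. Without a genome or exon annotation, peak sequences and transcript regions were not analysed here. Some genes that the rule names are counted but not reported here.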

Additional observations from a re-analysis of the deposited data

How the results depend on the processing

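Over 92 alternatives to 9 results, 72 kept direction and call (for values with no test, their size), 12 moved and 8 reversed. No test could pass 0.05 under any of them, so no call could change. Some of the 72 could not differ in direction either, so their number does not measure robustness. Blocking on the replicate keeps each difference, and with chromosomes 1 to 22 and X alone the difference in log2 peaks stayed at 2.59. Keeping only the 50% of peaks with the lowest p in each list, the difference in share of genes was 0.748 percentage points, 2 hypoxia-only genes were left, 24.4% of genes had an EU peak and 13.8% of hypoxia replicate 1 peaks were overlapped by replicate 2. Over all peaks this overlap was 32.8% when at least 50% of the bases had to be shared. With every library shortened to the 212 peaks of the shortest, the differences became -0.480 for log2 peaks, -0.661 for log2 genes and -0.173 for position, with 0 hypoxia-only genes. An EU peak was found for 0 of the 9 genes left (0%, exact interval 0 to 33.6), the EU list being cut as well. The share (-0.871 points) and log2 peaks per gene (0.37) kept their sign there. The excess of hypoxia peaks and genes was thus not seen in lists of equal length, where the 9 genes left were too few to settle the order. Position also reversed with wide peaks (-0.0686) and as log2 distance to the 3′ end (-0.819). From the condition lists, 45 of 80 genes were hypoxia-only (56.3%) and 20 normoxia-only (25%), beside 62.8% and 20.3% of all genes in either list. Leaving out 1 library at a time, hypoxia-only genes ranged from 12 to 38 (38 without hypoxia replicate 1, 19 without hypoxia replicate 2) and normoxia-only genes from 0 to 19 (19 without normoxia replicate 1, 3 without normoxia replicate 2). Such an omission loosens the rule for these counts, which can then only rise or stay. The shares of all genes under the looser rules were not computed, so the counts are no result about these families. Over the same omissions the differences ranged from 0.93 to 4.25 for log2 peaks, 0.23 to 2.82 for log2 genes, -1.15 to -0.798 points for the share, 0.70 to 1.46 for log2 peaks per gene and -0.109 to 0.139 for position. Apart from the shortened lists, whose construction cuts peaks, the cause was not tested. Without RNF213, chosen after seeing the data, log2 peaks per gene differed by 0.87.

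The labels do not say whether replicate numbers pair the libraries. Replicate differences in hypoxia and normoxia correlated at -0.0978 over 3226 genes, which cannot settle it in called lists of such unequal length. Blocking on the replicate number, the differences in log2 peaks (2.59), log2 genes (1.52), share (-0.976 points) and log2 peaks per gene (1.08) each had an exact sign-flip permutation p of 0.5, the smallest that 2 pairs allow, and position (0.0150) had an exact p of 1. No replicate block could change a call, because 2 pairs cannot give a sign-flip p below 0.5. With the numbers crossed, an alternative added after seeing the data, 0 results passed the threshold, and for the same reason none could.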
